A study of Homo sapiens with 18 samples.

Results

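MCF10A and hTERT RPE-1 cells answered the same hsa-miR-28-5p mimic differently, and the genes compared here are those whose change differed between the lines. A gene's response is its log2 fold change with miR-28-5p relative to siNT, a non-targeting siRNA that served as the negative control. The response was formed within each cell line, the genes were joined by symbol, and the MCF10A response was subtracted from the RPE-1 response. All 13339 genes with enough signal in both lines were compared, of 13900 symbols listed for both lines and 12 of the 18 libraries. MCF10A is an immortalized, near-normal human breast epithelial line, and hTERT RPE-1 is a human retinal pigment epithelial line immortalized with telomerase. Cells of each line received 30 nM of siNT, of the miR-28-5p mimic or of the hsa-miR-708-5p mimic for 72 h, and polyadenylated RNA was sequenced from 3 biological replicates per group, numbered 7, 8 and 9 in MCF10A and 1, 2 and 3 in RPE-1. The lines were grown in different media and were processed as separate tables, so the line, its medium and its batch of replicates cannot be told apart. In MCF10A 3095 of these genes changed with miR-28-5p and in RPE-1 6364, which is 23.2% and 47.7% of the genes tested. That fit did not use the replicate numbers, and with them as a block in each line 4014 and 6514 genes changed.

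A microRNA lowers mRNAs that carry a match to its seed, bases 2 to 8 of the mature strand, usually in the 3′ UTR, and the mRNAs further down the pathway then rise or fall in turn. Double-stranded RNAs and other foreign RNAs can also be sensed. RIG-I and MDA5 are sensors that switch on interferon and the interferon-stimulated genes, while OAS proteins lead to the activation of RNase L. The integrated stress response is a separate program in which ATF4 raises genes for amino acid synthesis and transport. The seed is shown on hsa-miR-708-5p, which shares it with miR-28-5p, because it defines the matches counted further on. Its mature sequence lies at chr11:79402077-79402099 on the minus strand (RefSeq, GRCh38.p14), and capitals mark the seed.
hsa-miR-708-5p: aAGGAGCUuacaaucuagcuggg

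Each library held between 19.4 and 31.7 M reads on genes in MCF10A and between 23.8 and 40.3 M in RPE-1, estimated from the step between low values. A count of 3 reads corresponded to a value of 2.49–4.02 in MCF10A and 2.59–4.40 in RPE-1, which covers counting error only. All 12 breast basal markers had a mean of at least 10 in MCF10A, and 6 did in RPE-1. In RPE-1 only 7 of 14 retinal pigment epithelium markers had a mean of at least 10, and RPE65, RLBP1, TYR, DCT, LRAT, TTR and SLC16A8 did not. In MCF10A 5 of the 14 reached that mean. Of the 10 blood and endothelial markers, 3 in MCF10A and 1 in RPE-1 reached that mean. A few libraries stood apart. RPE-1 miR-28-5p replicate 1 had 15.1% of its signal on ribosomal RNA genes, where the other RPE-1 libraries of the comparison had 4.59–7.20%. RPE-1 siNT replicate 3 alone had high PMEL and TYRP1, with 544 and 561, while the other siNT libraries stayed at or below 13.8. Both markers reached the mean of 10 in RPE-1 only through this library. MCF10A siNT replicate 8 had low values for stress response genes, and MCF10A miR-28-5p replicate 7 had an RPE65 value of 114 against at most 23.9 in the other MCF10A libraries compared. Many counts that moved by over 1.5 times without one of these libraries are given with that value. Moves of small counts are not all given.

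The responses in the lines were related but far from equal. Across the 13339 genes the Pearson correlation of the log2 fold changes was 0.395 and Spearman's rho 0.415, a description across genes, which are not independent replicates. The standard deviation of the log2 fold change was 0.551 in MCF10A and 0.758 in RPE-1. The response differed between the lines for 3127 genes, 23.4% of those tested, by limma with Benjamini-Hochberg adjusted p below 0.05. It was higher in RPE-1 for 1614 genes (12.1%) and lower for 1513 (11.3%). Of the 3127 genes, 1841 were called in RPE-1 alone, 508 in MCF10A alone, 355 in both in 1 direction and 212 in both in opposite directions, and the rest in neither. A difference of at least 1 on the log2 scale was called for 1136 genes (8.52%). Where the direction was shared, the change was larger in RPE-1 for 309 of the 355 genes. The opposite group is 1.59% of all genes tested, and 113 of its genes rose in RPE-1 and fell in MCF10A while 99 did the reverse. In 196 of the 212 the siNT and miR-28-5p libraries did not overlap in either line, which held in opposite directions for 4.6% of all genes, and in 1 line at a time for 42.5% of all genes in MCF10A and 55.1% in RPE-1. With the replicate numbers as a block in both lines 346 genes were opposite, and with the block in MCF10A alone 328. Leaving out MCF10A siNT replicate 7, 8 or 9 left 138, 140 and 113 opposite genes, and leaving out MCF10A miR-28-5p replicate 8 or 9 left 116 and 114.

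**Figure D1:**
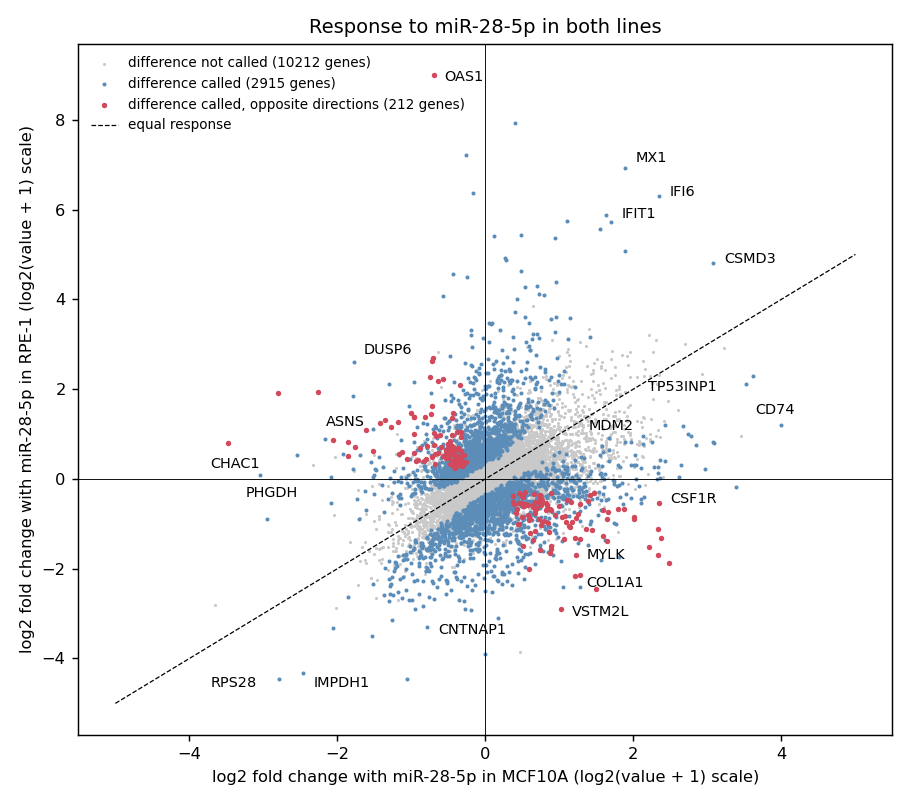
Each point is 1 of the 13339 genes, with its log2 fold change with miR-28-5p in MCF10A on the horizontal axis and in RPE-1 on the vertical axis. The 212 genes in red changed in opposite directions, the dashed line marks an equal response, and OAS1 and MX1 sit far above it.

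The largest differences between the lines were in interferon-stimulated genes, which code for antiviral effectors. Of 42 listed effectors, 37 passed the filter on low values in both lines, some in RPE-1 through the treated libraries. These 37 rose in RPE-1, beside 24.0% of all genes, and 33 had a response higher than in MCF10A, beside 12.1%. In MCF10A, 10 rose, 1 fell and 26 did not pass the test, where 10.7% of all genes rose. With the replicate block 17 rose in MCF10A, and 16 did under scaling by the total. The median log2 fold change of the list was 3.72 in RPE-1 and 0.40 in MCF10A, and the median difference was 3.31, beside -0.01 over all genes. In bulk RNA, more cells that express a gene and more RNA per cell cannot be told apart.

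OAS1 (chr12:112906962-112933219), which makes the 2′-5′ oligoadenylates that activate RNase L, had the largest difference of all genes. Its values in RPE-1 were 10.4, 3.04 and 2.93 with siNT and 483, 9352 and 5218 with miR-28-5p, and in MCF10A 668, 682 and 510 with siNT and 456, 353 and 338 with miR-28-5p. The groups did not overlap in either line, and they moved opposite ways. The log2 fold change was 8.99 ± 0.87 (SE) in RPE-1 and -0.70 ± 0.17 in MCF10A, with a difference of 9.68 ± 0.89 (adjusted p = 3.2e-05). Since 2 of 3 siNT libraries of RPE-1 held no more than about 3 reads of OAS1, the size of that fold depends on the pseudocount. Without MCF10A siNT replicate 8 the fall of OAS1 in MCF10A did not pass, and the difference between the lines did. IFITM1, an antiviral membrane protein, read 16.8, 20.9 and 13.7 with siNT and 437, 8648 and 5024 with miR-28-5p in RPE-1 and 257, 397 and 338 with siNT and 184, 271 and 403 with miR-28-5p in MCF10A. Its RPE-1 groups were far apart while those of MCF10A overlapped, and the difference was 7.48 ± 0.88 (adjusted p = 9e-05). OAS2, a relative of OAS1, differed by 7.53 ± 1.17 and MX1, a GTPase that traps viral nucleocapsids, by 5.05 (adjusted p = 0.003), and MX1 rose in both lines (6.93 and 1.88). For OAS2 too, 2 of 3 siNT libraries of RPE-1 held no more than about 3 reads, so its size depends on the pseudocount.

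IFIT1 and IFIT2 bind foreign RNA. IFIT1 read 416, 444 and 685 with siNT and 5557, 74143 and 45957 with miR-28-5p in RPE-1 but 83.8, 39.6 and 47.5 with siNT and 217, 114 and 224 with miR-28-5p in MCF10A. IFIT1 therefore rose in both lines, by 5.73 and 1.69 on the log2 scale, with a difference of 4.04 ± 0.79 (adjusted p = 0.0024). IFIT2 differed by 4.42 ± 0.98. IFI6, a mitochondrial and endoplasmic reticulum protein, rose by 6.31 in RPE-1 and by 2.34 in MCF10A, where the treated libraries held 67, 78.8 and 446. USP18, which turns interferon signaling down, read 31.9, 38.5 and 55.8 with siNT and 356, 4601 and 3420 with miR-28-5p in RPE-1 and 81.4, 131 and 98.6 with siNT and 99.2, 102 and 131 with miR-28-5p in MCF10A. That is a rise of 5.40 in RPE-1 next to 0.11 in MCF10A, which did not pass the test (difference 5.29 ± 0.77, adjusted p = 0.00052). OAS3, BST2 and IFI44L, all antiviral effectors, differed by 5.00, 4.61 and 4.15 on the log2 scale. CEACAM1, an adhesion molecule that is not on the list, belonged to the same top 10 and read 8.63, 3.04 and 4.4 with siNT and 104, 2037 and 545 with miR-28-5p in RPE-1 against 928, 404 and 314 with siNT and 606, 421 and 329 with miR-28-5p in MCF10A. In RPE-1, 2 of its siNT libraries held no more than about 3 reads, so the size of its fold depends on the pseudocount. SAMD9, an effector that limits poxvirus growth, rose by 3.45 in RPE-1 and changed by 0.07 in MCF10A. Its difference of 3.38 ± 0.89 (adjusted p = 0.016) missed the threshold without RPE-1 siNT replicate 1 (3.19) or miR-28-5p replicate 3 (2.99), and under robust moderation, where adjusted p was 0.067, the highest over the alternatives.

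The rise was uneven among the RPE-1 libraries. Relative to siNT, the median of the 37 genes was 2.09, 5.23 and 4.35 on the log2 scale in RPE-1 miR-28-5p replicates 1, 2 and 3, and 0.34, 0.37 and 0.64 in MCF10A replicates 7, 8 and 9. Replicate 1 of RPE-1 was thus the lowest of its group and still above every MCF10A library. It is also the library with the high share of ribosomal RNA, and the part of that share in the result was not tested. Without it, 35 of the 37 genes had the higher response in RPE-1 and the median difference was 4.11. In MCF10A the miR-708-5p mimic, which is compared with the same siNT libraries, gave these genes a median log2 fold change of 2.72, and in RPE-1 4.77.

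**Figure D2:**
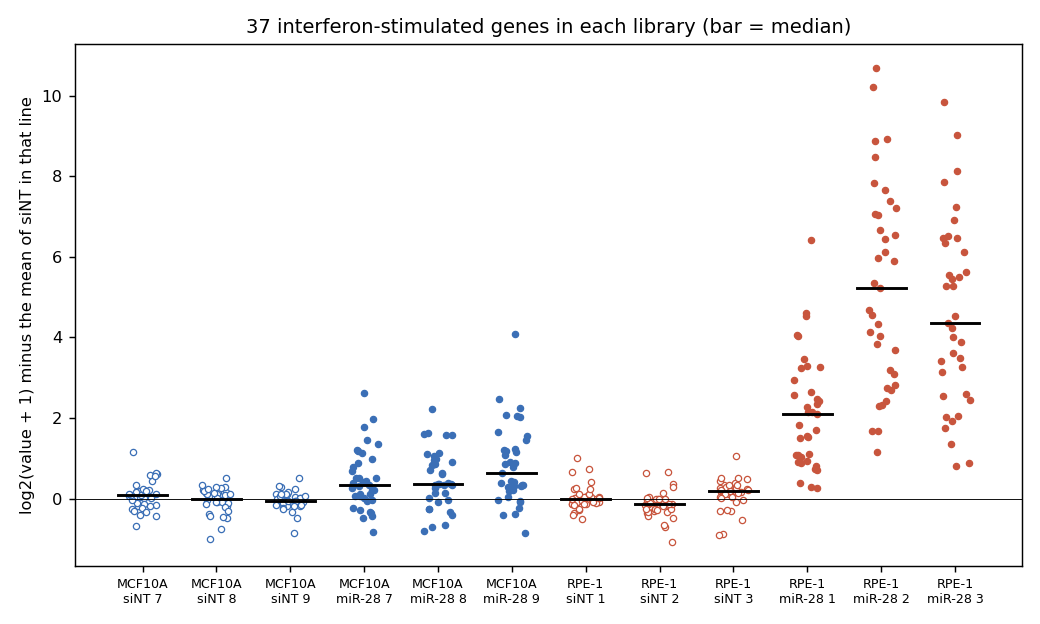
Points are the 37 interferon-stimulated genes in each library, as log2(value + 1) minus the mean of the siNT libraries of that line, and bars are medians. The medians of the 3 RPE-1 libraries with miR-28-5p are 2.09, 5.23 and 4.35, and those of MCF10A stay at or below 0.64.

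Sensors and signaling genes upstream of the effectors moved the same way by less. Of 22 tested, 15 rose and 2 fell in RPE-1, 6 rose (3 without siNT replicate 8) and 1 fell in MCF10A, and 11 had a higher and 3 a lower response in RPE-1 (median difference 0.82). Of all genes, 24.0% rose in RPE-1, 10.7% rose in MCF10A, and 12.1% had a higher and 11.3% a lower response in RPE-1. IFIH1, which codes for the RNA sensor MDA5, rose by 4.28 in RPE-1 and by 0.53 in MCF10A (difference 3.75 ± 0.65, adjusted p = 0.0019). DDX58, which codes for RIG-I, rose by 3.22 and 0.69, and its difference of 2.53 ± 0.64 (adjusted p = 0.013) lost the call under robust moderation (adjusted p = 0.057). MHC class I genes, which present peptides to T cells, rose in 11 of 15 cases in RPE-1 and in 4 in MCF10A, beside 24.0% and 10.7% of all genes. Without RPE-1 siNT replicate 3, 6 rose in RPE-1. In MCF10A 1 rose without siNT replicate 8, and 7 rose without miR-28-5p replicate 7 or under scaling by the total. For 4 of the 15 the response was higher in RPE-1 and for 1 lower, and 12 were higher without RPE-1 miR-28-5p replicate 1. TAP2, the peptide transporter, rose in RPE-1 by 2.24 and changed by 0.17 in MCF10A (difference 2.07 ± 0.46, adjusted p = 0.0084). PSMB8, an immunoproteasome subunit, differed by 1.33 ± 0.31 (adjusted p = 0.0054).

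The promoter sequences of the effectors are shown because their genes moved together. The letters GAAA, any 2 bases and GAAA again, the core of the interferon-stimulated response element, were searched on both strands from 250 bases before to 50 after the annotated gene start, without counting overlaps with other motifs. They were present in 23 of 31 effector promoters with a RefSeq entry (74.2%) and in 310 of 10369 promoters of tested genes (2.99%). Among genes with a higher response in RPE-1 the share was 6.31%, among those with a lower response 1.93%, and among those without a call 2.61%. These are matches of letters, not measured binding sites. Windows around the first match are given for the 4 effectors with the largest differences among those with a match and a mean of at least 100 in each line. Capitals mark every match in the window, which in BST2 are 2 that overlap. They lie at chr11:313975-314034 (plus strand, IFITM1), chr12:112938306-112938365 (plus, OAS3), chr19:17405726-17405785 (minus, BST2) and chr1:78620259-78620318 (plus, IFI44L) of GRCh38.p14.
IFITM1: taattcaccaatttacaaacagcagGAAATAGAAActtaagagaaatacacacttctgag
OAS3: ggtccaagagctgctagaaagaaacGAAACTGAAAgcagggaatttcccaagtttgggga
BST2: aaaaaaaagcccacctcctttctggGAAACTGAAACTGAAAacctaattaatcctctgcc
IFI44L: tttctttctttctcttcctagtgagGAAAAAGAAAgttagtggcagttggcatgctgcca

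Genes of the integrated stress response mostly fell in MCF10A, and many of them rose in RPE-1. Of 30 genes listed and 28 tested, 16 fell and 1 rose in MCF10A, while 14 rose and 4 fell in RPE-1 (1 fell without RPE-1 miR-28-5p replicate 1 and 2 under scaling by the total). Of all genes, 12.5% fell in MCF10A and 24.0% rose in RPE-1. The response was higher in RPE-1 for 19, lower for none, and 7 were called in opposite directions, beside 12.1%, 11.3% and 1.59% of all genes. The list had a median log2 fold change of -0.85 in MCF10A and 0.43 in RPE-1 (median difference 1.33), and both signs held under scaling by the total or by the upper quartile of each library.

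ASNS (chr7:97851677-97928441), asparagine synthetase, read 4750, 1120 and 5293 with siNT and 764, 811 and 621 with miR-28-5p in MCF10A and 729, 818 and 545 with siNT and 1183, 1279 and 1308 with miR-28-5p in RPE-1. All miR-28-5p libraries lay below siNT in MCF10A and above it in RPE-1, with MCF10A siNT replicate 8 nearest to its treated group. The log2 fold change was -2.06 ± 0.45 in MCF10A and 0.87 ± 0.13 in RPE-1, a difference of 2.93 ± 0.47 (adjusted p = 0.00087). PSAT1 (chr9:78297125-78330093), an enzyme of serine synthesis, read 7179, 3429 and 8104 with siNT and 2946, 3481 and 3555 with miR-28-5p in MCF10A and 1015, 1142 and 820 with siNT and 2225, 2667 and 2822 with miR-28-5p in RPE-1. It fell by 0.82 and rose by 1.38, and in MCF10A siNT replicate 8 lay within the range of the treated libraries. SLC6A9, a glycine transporter, likewise fell by 1.27 in MCF10A and rose by 1.16 in RPE-1 (difference 2.43 ± 0.47, adjusted p = 0.00098), where replicate 1 with miR-28-5p had no more than the highest siNT library. TRIB3, a pseudokinase target of ATF4, fell by 1.86 in MCF10A and rose by 0.51 in RPE-1. SLC7A11, the cystine transporter, fell by 2.17 in MCF10A and in RPE-1 had a log2 fold change of 0.89 ± 0.40, which did not pass (difference 3.06 ± 0.56, adjusted p = 0.00062).

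The regulators ATF4 and DDIT3 and the target CHAC1 are named here after their values were seen. ATF4 read 12543, 10116 and 13392 with siNT and 5244, 6008 and 6029 with miR-28-5p in MCF10A and 6681, 7819 and 6075 with siNT and 8060, 10610 and 9438 with miR-28-5p in RPE-1, a fall of 1.05 and a rise of 0.45. CHAC1, a glutathione-degrading enzyme and a sensitive ATF4 target, read 163, 15 and 160 with siNT and 8.04, 5.8 and 3.94 with miR-28-5p in MCF10A and 44, 84.1 and 48.4 with siNT and 91.6, 98.4 and 108 with miR-28-5p in RPE-1. Its difference of 4.28 ± 0.83 was the largest of the list. DDIT3, the stress transcription factor CHOP, rose in RPE-1 by 2.18 but not detectably in MCF10A (0.32 ± 0.31).

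Several genes fell in MCF10A and did not pass the test in RPE-1. PHGDH (chr1:119711934-119744215), the first enzyme of serine synthesis, read 1415, 378.2 and 1390 with siNT and 89.8, 111 and 129 with miR-28-5p in MCF10A and 989, 955 and 869 with siNT and 837, 1190 and 966 with miR-28-5p in RPE-1. The RPE-1 groups overlapped, those of MCF10A did not, and the difference was 3.12 ± 0.43 (adjusted p = 0.00027). PCK2, STC2, MTHFD2 and NDRG1, of which MTHFD2 is a mitochondrial folate enzyme and NDRG1 a stress- and hypoxia-linked gene outside the list, fell by 1.49, 1.51, 1.12 and 1.50 in MCF10A and changed by 0.21, 0.04, 0.25 and 0.09 in RPE-1. Of the 19 serine and one-carbon enzymes tested, some of which are also on the stress list, 9 fell and 2 rose in MCF10A, 5 rose and 1 fell in RPE-1, and 8 had a higher and 1 a lower response in RPE-1. Of all genes, 12.5% fell in MCF10A, 24.0% rose in RPE-1, and 12.1% had a higher and 11.3% a lower response in RPE-1. GLDC, which cleaves glycine, fell by 1.61 in MCF10A and rose by 1.08 in RPE-1. Without MCF10A siNT replicate 8, whose stress genes were low, 22 of the 28 stress response genes had the higher response in RPE-1 and the median in MCF10A was -1.14.

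**Figure D3:**
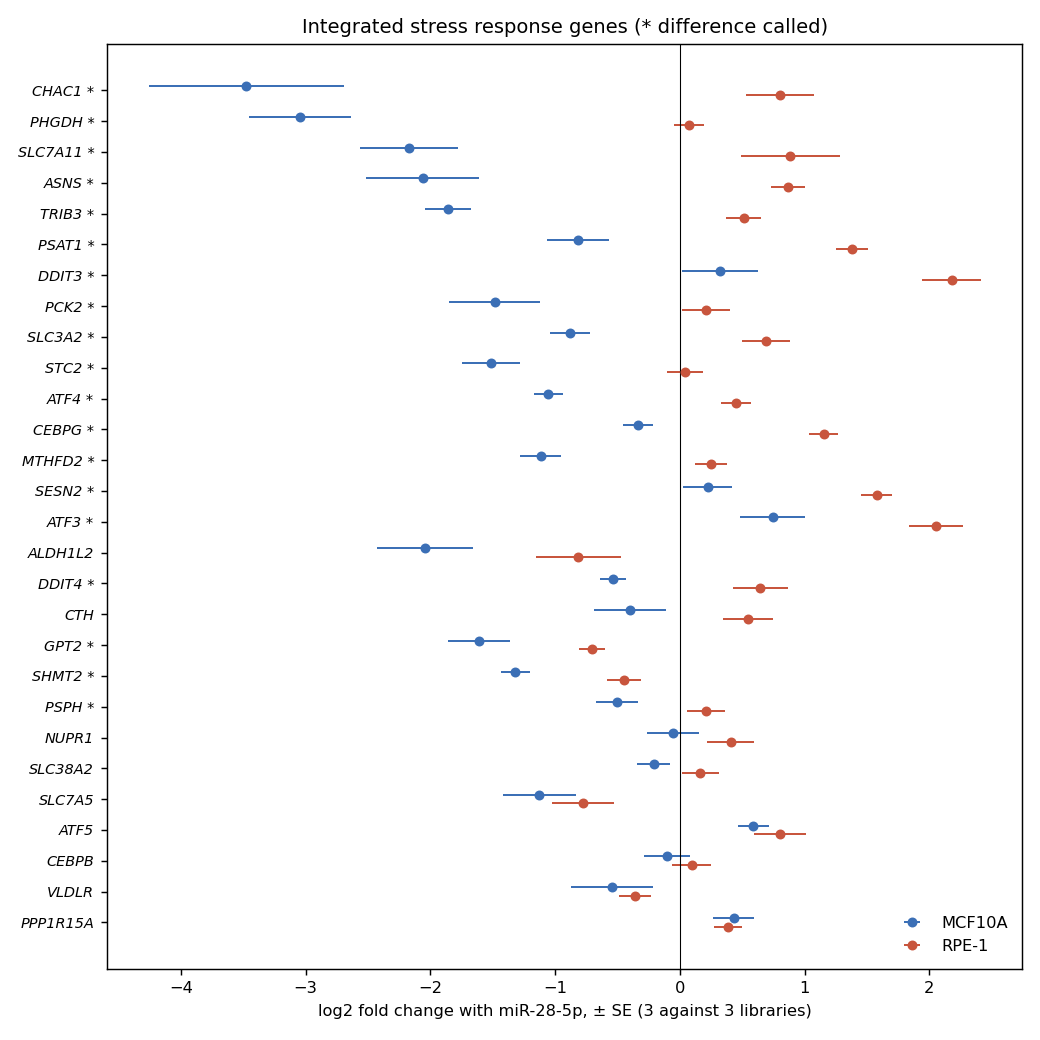
For the 28 integrated stress response genes, points are the log2 fold change with miR-28-5p in MCF10A (blue) and RPE-1 (red), bars are ± SE of 3 against 3 libraries, and asterisks mark the 19 genes whose response differed. Most blue points lie left of 0 and most red points right of it, with CHAC1, PHGDH, SLC7A11 and ASNS farthest apart.

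The letters TGATGNAA, part of the composite element that ATF4 binds with C/EBP proteins, occurred in 4 of 22 promoters of the list (18.2%) and in 1.64% of all promoters searched in the same way. They occurred in 6.74% of the opposite genes that rose in RPE-1 and in 2.70% of those that fell. Promoters are set by the first transcript start listed for a gene in RefSeq, which for ASNS lies inside the span of the whole gene given above. The ASNS promoter is shown for its match, at chr7:97872444-97872501 on the minus strand, and SLC3A2, the heavy chain of the amino acid transporters, for its match in the other orientation, at chr11:62881711-62881748 on the plus strand. SLC3A2 fell by 0.88 in MCF10A and rose by 0.69 in RPE-1.
ASNS: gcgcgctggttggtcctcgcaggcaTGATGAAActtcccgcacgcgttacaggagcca
SLC3A2: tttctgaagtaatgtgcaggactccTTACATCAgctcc

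Growth factor signaling genes also moved apart. Of 27 immediate early genes and DUSP phosphatases, which respond to and restrain the ERK pathway, 9 fell and 4 rose in MCF10A (2 rose without siNT replicate 8), and 16 rose and 3 fell in RPE-1. The response was higher in RPE-1 for 16 and lower for 2, and 4 were opposite (2 under scaling by the total), with a median difference of 0.71. Of all genes, 12.5% fell and 10.7% rose in MCF10A, and 24.0% rose and 23.7% fell in RPE-1. The response of all genes was higher in RPE-1 for 12.1%, lower for 11.3% and opposite for 1.59%. DUSP6 (chr12:89347235-89352501), the cytoplasmic ERK phosphatase, read 3896, 3961 and 4219 with siNT and 2276, 2695 and 2350 with miR-28-5p in MCF10A and 181, 193 and 247 with siNT and 1244, 1551 and 1038 with miR-28-5p in RPE-1. No library of one group reached the other in either line, and the log2 fold changes were -0.72 ± 0.10 and 2.62 ± 0.18, a difference of 3.34 ± 0.20 (adjusted p = 4.3e-08). PHLDA1, another gene induced by growth factors, fell by 0.73 in MCF10A and rose by 1.62 in RPE-1. FOS, an AP-1 subunit, rose by 1.07 in RPE-1 and had a log2 fold change of -0.58 ± 0.22 in MCF10A (difference 1.65 ± 0.38, adjusted p = 0.0047).

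Other genes that rose in RPE-1 and fell in MCF10A were NECTIN1, SLC20A1 and TRIB2. NECTIN1, a cell adhesion molecule and herpesvirus receptor, read 5607, 4522 and 4529 with siNT and 2628, 2301 and 2376 with miR-28-5p in MCF10A and 156, 145 and 150 with siNT and 492, 334 and 435 with miR-28-5p in RPE-1. Its difference was 2.46 ± 0.20 (adjusted p = 1.1e-07), and the groups were separate in both lines. SLC20A1, a phosphate transporter, and TRIB2, a pseudokinase, differed by 1.53 ± 0.21 and 2.18 ± 0.24. Integrins, the receptors for extracellular matrix, included 3 opposite genes of 16, beside 1.59% of all genes. ITGA2, the collagen receptor subunit, read 6916, 4252 and 5546 with siNT and 4123, 3096 and 2964 with miR-28-5p in MCF10A and 977, 1036 and 1579 with siNT and 7615, 11412 and 4920 with miR-28-5p in RPE-1. It fell by 0.70 and rose by 2.69, and ITGB6 and ITGA6 were opposite in the same sense, by 1.96 and 1.54. The list's median difference was 0.01, with the sign turned under either other scaling.

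Other genes fell in RPE-1 and rose in MCF10A, among them MYLK, COL1A1, ACTA2 and TUBA1A. MYLK (chr3:123610049-123884332), myosin light chain kinase, read 44016, 44430 and 51426 with siNT and 13127, 14039 and 15812 with miR-28-5p in RPE-1 and 77.8, 87.8 and 80.3 with siNT and 229, 174 and 179 with miR-28-5p in MCF10A. It fell by 1.70 in RPE-1 and rose by 1.22 in MCF10A with no overlap, a difference of -2.93 ± 0.22 (adjusted p = 1.6e-07). COL1A1 (chr17:50184101-50201631), a chain of type I collagen, read 34155, 67366 and 22655 with siNT and 5438, 17209 and 6069 with miR-28-5p in RPE-1 and 107, 104 and 89.5 with siNT and 298, 215 and 196 with miR-28-5p in MCF10A. Its RPE-1 libraries varied by more than those of MYLK, and the difference was -3.39 ± 0.58 (adjusted p = 0.0012). ACTA2, smooth muscle actin, fell by 1.56 in RPE-1 and rose by 0.89 in MCF10A, TAGLN, an actin-binding protein of contractile cells, fell by 0.82 and rose by 1.08, and SYNPO, an actin-binding protein, fell by 0.96 and rose by 1.17. TUBA1A (chr12:49184795-49189080), an alpha-tubulin, read 30230, 33655 and 25204 with siNT and 12255, 10752 and 12008 with miR-28-5p in RPE-1, where it fell with no overlap, and rose by 1.06 in MCF10A. Of 16 mesenchymal markers tested, 4 had a lower and 2 a higher response in RPE-1, beside 11.3% and 12.1% of all genes, and 10 were not called. Of the 4 that were opposite, ACTA2 and TAGLN fell in RPE-1, while the transcription factors SNAI2 and TWIST2, named here after their values were seen, rose there by 0.58 and 0.53 and had -0.64 and -0.53 in MCF10A. Without MCF10A siNT replicate 8, 2 of the list were opposite. Of all genes, 1.59% were opposite in the main fit. With siNT, TAGLN held 68824, 86964 and 51701 in RPE-1 and 61.8, 98 and 71.7 in MCF10A, in tables that were scaled separately.

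VSTM2L, GASK1B (difference -2.54 ± 0.22) and LIF were also opposite. VSTM2L, a secreted protein, read 171, 276 and 160 with siNT and 21.8, 27.2 and 28 with miR-28-5p in RPE-1 and 394, 222.8 and 266 with siNT and 603, 503 and 643 with miR-28-5p in MCF10A. This was the lowest difference among genes with a mean of at least 100 in each line, -3.91 ± 0.47 (adjusted p = 4.9e-05). LIF, a cytokine of the IL-6 family, fell by 1.08 in RPE-1 and rose by 1.14 in MCF10A, and IL11 of the same family fell by 1.14 and rose by 1.44. Of 13 cytokines and chemokines tested, 5 had a lower and 1 a higher response in RPE-1, beside 11.3% and 12.1% of all genes. Without MCF10A siNT replicate 8 or miR-28-5p replicate 7 none of them was opposite. TGFB2, a TGF-beta ligand, fell by 0.84 in RPE-1 and rose by 1.04 in MCF10A. Of the 26 YAP and TEAD targets, 10 fell and 4 rose in RPE-1, 2 rose and 2 fell in MCF10A, and 7 had a lower and 1 a higher response in RPE-1 (12 and 3 with the replicate block, 4 and 1 without MCF10A siNT replicate 8). In MCF10A 6 of them rose with the block and 4 without miR-28-5p replicate 7. Of all genes, 23.7% fell and 24.0% rose in RPE-1, and 10.7% rose and 12.5% fell in MCF10A. CRIM1, a membrane regulator of BMP signaling, fell by 1.56 in RPE-1 and had a log2 fold change of -0.14 ± 0.10 in MCF10A.

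CSF1R (chr5:150053295-150113365), the receptor for macrophage colony-stimulating factor, showed a rise in MCF10A with a small fall in RPE-1. Its values were 50.3, 38.6 and 46.6 with siNT and 193, 223.1 and 291 with miR-28-5p in MCF10A and 265, 300 and 280 with siNT and 172, 197 and 216 with miR-28-5p in RPE-1. The difference was -2.88 ± 0.25 (adjusted p = 2.5e-07). SBF2-AS1, a non-coding transcript antisense to SBF2, fell by 1.65 in RPE-1 and rose by 0.87 in MCF10A. No strand setting is given in the sources used here, so reads of the partner gene may be among its counts. BCYRN1, a non-coding RNA with an Alu-like sequence whose reads may be shared with other copies, differed by -3.53 ± 0.97 (adjusted p = 0.017). Without MCF10A siNT replicate 9, which held 63.0 where the other siNT libraries held 467 and 721, its difference was -2.47 and missed the threshold, as it did under robust moderation.

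**Figure D4:**
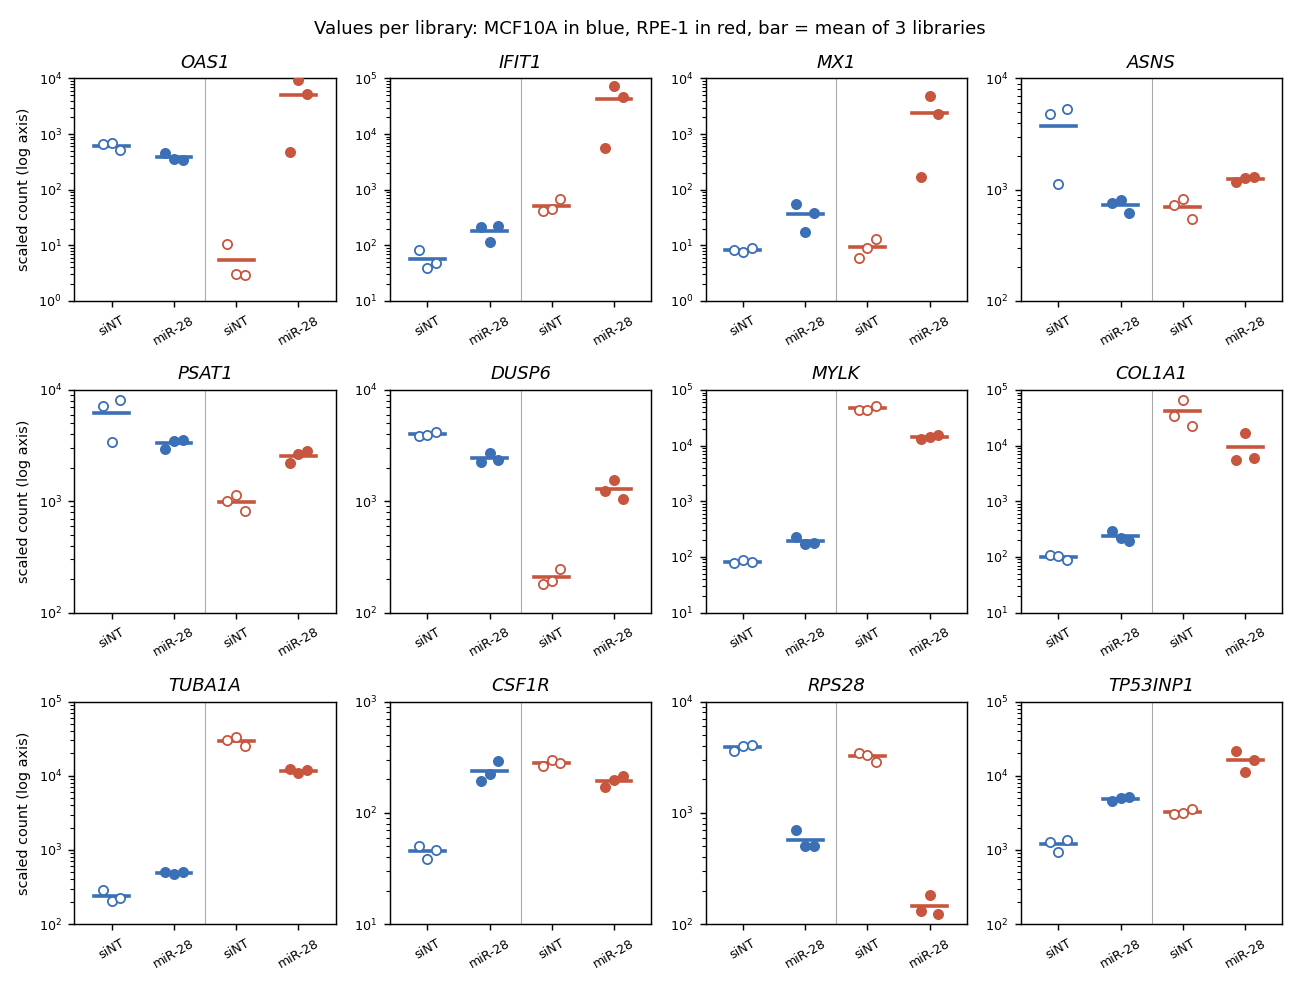
Scaled counts per library on a log axis for 12 genes, with siNT as open and miR-28-5p as filled points, MCF10A in blue, RPE-1 in red and bars at the mean of 3 libraries. ASNS, PSAT1, DUSP6, MYLK, COL1A1 and TUBA1A move in opposite directions in the lines, and RPS28 falls and TP53INP1 rises in both.

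Some genes passed the test in RPE-1 and not in MCF10A. PLA2G4A, the phospholipase that releases arachidonic acid, read 83.7, 40.5 and 74.8 with siNT and 521, 1032 and 390 with miR-28-5p in RPE-1 and 1221, 1401 and 1209 with siNT and 995, 1277 and 1087 with miR-28-5p in MCF10A. THBD, the thrombin receptor thrombomodulin, rose by 3.48 and changed by 0.09 in MCF10A, where its level with siNT was already 1393, 1401 and 1106. ANGPTL4, an inhibitor of lipoprotein lipase, rose by 4.07 in RPE-1 and had a log2 fold change of -0.57 ± 0.23 in MCF10A. Among genes that fell in RPE-1 alone, PPL, the cornified envelope protein periplakin, read 1046, 738 and 960 with siNT and 134, 78.7 and 155 with miR-28-5p in RPE-1 and 6635, 4863 and 3934 with siNT and 4172, 4802 and 4168 with miR-28-5p in MCF10A. HACD2, an enzyme of very long-chain fatty acid synthesis, fell by 2.25 in RPE-1 and changed by 0.15 in MCF10A. ACSF2, an acyl-CoA synthetase, TTC9 and RTKN2 fell by 2.11, 2.27 and 2.16 in RPE-1 and changed by 0.25, 0.17 and 0.11 in MCF10A. CNTNAP1, a contactin-associated axonal protein, read 1799, 1872 and 1777 with siNT and 152, 187 and 217 with miR-28-5p in RPE-1 and 99.4, 153 and 131 with siNT and 68.4, 61.4 and 90.7 with miR-28-5p in MCF10A. Its fall was thus not confined to RPE-1, since its values with miR-28-5p lay below those with siNT in MCF10A as well. SH3D21 fell by 2.89 in RPE-1 and changed by -0.27 in MCF10A. ROR1, a receptor tyrosine kinase for WNT5A, was among the genes that rose in MCF10A alone, with 401, 432 and 465 with siNT and 1004, 1360 and 1500 with miR-28-5p there and 2706, 2576 and 2553 with siNT and 3040, 2653 and 2745 with miR-28-5p in RPE-1. HECW2, a ubiquitin ligase, PCDH7, a protocadherin, WBP1 and ZNF154 rose in MCF10A by 1.61, 1.16, 1.81 and 1.33 and changed by -0.18, -0.21, -0.13 and -0.09 in RPE-1. Keratin and desmosome genes build the epithelial skeleton and its junctions, and only 15 of the 34 listed were tested in both lines. The response was lower in RPE-1 for 8 of these 15 and higher for 2. Of all genes, 11.3% were lower and 12.1% higher. KRT80 fell by 1.40 in RPE-1 (difference -2.03 ± 0.26), whereas KRT15 rose by 1.99 there (difference 2.29 ± 0.41). LAMA3, a laminin chain of epithelial basement membranes, rose in RPE-1 by 3.13 and did not pass the test in MCF10A (-0.04).

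RPS28 (chr19:8321496-8323340), a small subunit ribosomal protein, read 3465, 3301 and 2892 with siNT and 132, 184 and 123 with miR-28-5p in RPE-1 and 3589, 3960 and 4062 with siNT and 697, 500 and 503 with miR-28-5p in MCF10A. It fell in both lines, by 4.47 and 2.79 on the log2 scale, with a difference of -1.68 ± 0.24 (adjusted p = 6.5e-05). IMPDH1, an enzyme of guanine nucleotide synthesis, fell by 4.32 in RPE-1 and 2.47 in MCF10A, and WSB2, a ubiquitin ligase adapter, by 3.32 and 2.06. Their differences were -1.85 ± 0.31 and -1.26 ± 0.29. JAGN1, an endoplasmic reticulum protein needed by neutrophils, fell by 2.63 and 1.86, and its difference of -0.78 ± 0.26 (adjusted p = 0.042) missed the threshold in 9 of 22 alternatives, between -0.94 and -0.66. Those were the joint fit and the omission of any MCF10A siNT replicate, of MCF10A miR-28-5p replicate 7 or 8, of RPE-1 siNT replicate 1 or of RPE-1 miR-28-5p replicate 1 or 2. CHI3L1, a secreted chitinase-like protein, fell in both by 2.87 and 2.02, with a difference of -0.85 ± 0.73 (unadjusted 95% interval -2.40 to 0.69) that did not pass.

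Of the 32 small subunit proteins, 31 fell in RPE-1 and 8 in MCF10A, and of the 46 large subunit proteins 44 and 20, beside 23.7% and 12.5% of all genes. The other 24 and 26 did not pass in MCF10A. With the replicate block in MCF10A 17 small subunit proteins fell there, and without MCF10A siNT replicate 8 the MCF10A counts were 5 and 11. The fall was called larger in RPE-1 for 9 of the 32 and 7 of the 46, where 11.3% of all genes had a lower response. Without RPE-1 miR-28-5p replicate 1, these counts were 25 and 23, without MCF10A miR-28-5p replicate 7 they were 22 and 13, and without RPE-1 siNT replicate 3 the first was 4. With the replicate block in both lines they were 19 and 13. Ribosomal protein genes have many processed copies in the genome, and how reads shared with them were split makes single values uncertain. RPS25, of the small subunit, fell by 2.18 in RPE-1 and 1.26 in MCF10A (difference -0.92 ± 0.18, adjusted p = 0.0011). RPLP0, the base of the ribosomal stalk, fell by 1.20 in RPE-1 and had a log2 fold change of -0.29 ± 0.14 in MCF10A (difference -0.91 ± 0.26, adjusted p = 0.017). Ribosome biogenesis factors, which assemble the subunits in the nucleolus, did not pass in most cases: 9 of 40 fell and none rose in MCF10A (5 fell without siNT replicate 8), and 11 rose and 4 fell in RPE-1, where 24.0% of all genes rose. Without RPE-1 siNT replicate 3, 2 fell there, and under scaling by the total 1 did. The response was higher in RPE-1 for 14 (9 under either other scaling, 8 without MCF10A siNT replicate 8), beside 12.1% of all genes. NOB1, the endonuclease that makes the 3′ end of 18S rRNA, read 3131, 2945 and 3237 with siNT and 1385, 1506 and 1595 with miR-28-5p in MCF10A and 835, 756 and 748 with siNT and 747, 668 and 768 with miR-28-5p in RPE-1. POLR1B, a subunit of RNA polymerase I, rose by 0.68 in RPE-1 and had a log2 fold change of -0.22 ± 0.11 in MCF10A (difference 0.90 ± 0.15, adjusted p = 0.00027).

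Seed matches bear on which mRNAs could be direct targets. In the annotated 3′ UTR of 1 transcript per gene (GENCODE 44), the 6 letters GCTCCT, which pair with bases 2 to 7 of the mature strand, were searched on the transcript strand, and a match was extended to 7 or 8 bases where AGCTCCT or a final A was present. The 296 genes with a match of 8 bases had a median log2 fold change of -0.27 in RPE-1 and -0.14 in MCF10A, and a median difference of -0.13. The 7651 genes with no match had medians of 0.07, -0.01 and 0.06. In RPE-1, 44.6% of the genes with 8 bases and 19.9% of those with none fell, and in MCF10A 25.7% and 11.5%. Of the 490 genes with at least 2 matches of 7 or 8 bases, 25.1% had a lower and 8.37% a higher response in RPE-1, where among genes without a match 8.72% and 15.1% did. The median 3′ UTR was 3306 bases long in the genes with 8 bases and 928 in those with none, and its part in these shares was not tested. Genes that changed in opposite directions were 1.35% of those with 8 bases and 1.61% of those without a match.

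Target sites are shown for RPS28 and for genes with a match of at least 7 bases including base 8, with the match in capitals. These genes fell most in both lines, or fell in 1 of them with a lower response there. The matches in RPS28 are of 6 bases, at chr19:8322316-8322343 and chr19:8322351-8322378 on the plus strand. IMPDH1 (chr7:128392879-128392907, minus) and WSB2 (chr12:118033185-118033213, minus) fell in both lines. CNTNAP1 (chr17:42698927-42698955, plus) fell further in RPE-1, and ACSF2 (chr17:50474684-50474712, plus) fell in RPE-1 and not in MCF10A. OAS1 (chr12:112919632-112919660, plus) and SLC7A11 (chr4:138168711-138168739, minus) fell in MCF10A and not in RPE-1. With the miR-708-5p mimic, which shares the seed, the log2 fold change in MCF10A was 2.67 for OAS1 and -2.14 for SLC7A11. A match is a description of letters and not a measured site.
RPS28 first: tgtcacagtctGCTCCTtttttttgtcc
RPS28 second: gtaactgagatGCTCCTttaaataaagc
IMPDH1: acgggttctccAGCTCCTttccaggcaga
WSB2: gaaacaaaaatAGCTCCTtaaaagtactg
CNTNAP1: ggaccaattccAGCTCCTgacattccccc
ACSF2: aacgaactaagAGCTCCTggatgggtccg
OAS1: agagaggacaaAGCTCCTcagtgagctgg
SLC7A11: atttagactgtAGCTCCTcagccctgtgg

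Some genes changed in both lines with no called difference. MDM2, a ubiquitin ligase, rose by 1.48 and 1.24, in RPE-1 and MCF10A, and the interval of its difference was -0.17 to 0.65. TP53INP1, an autophagy and stress gene, rose by 2.27 and 2.05, with an interval of -0.28 to 0.72. CDKN1A, which codes for the cell cycle inhibitor p21, did not pass the test in either line (-0.16 ± 0.10 in RPE-1 and 0.22 ± 0.10 in MCF10A), and its difference of -0.39 ± 0.14 (adjusted p = 0.054) passed under either other scaling, without MCF10A miR-28-5p replicate 7 and without RPE-1 miR-28-5p replicate 1. PMAIP1, a pro-apoptotic BH3 protein, rose by 1.55 in RPE-1 but not detectably in MCF10A (difference 1.79 ± 0.45, adjusted p = 0.009). FAS, a death receptor, rose in both lines and by 0.95 more in RPE-1. CSMD3, a large membrane protein, AMY2B, an amylase, and ACER2, a ceramidase, also rose in both lines, by 4.82, 3.09 and 2.82 in RPE-1 and 3.08, 2.31 and 1.95 in MCF10A. The difference passed for CSMD3 (1.74 ± 0.27), while the intervals for AMY2B and ACER2 were -0.06 to 1.61 and 0.20 to 1.54.

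MYC, the growth-promoting transcription factor, read 12456, 15272 and 15877 with siNT and 7900, 8933 and 9110 with miR-28-5p in MCF10A and 1433, 1096 and 1197 with siNT and 1169, 1120 and 1254 with miR-28-5p in RPE-1. It fell by 0.74 in MCF10A and changed by -0.06 in RPE-1. The difference of 0.68 ± 0.22 (adjusted p = 0.029) ranged from 0.59 to 0.79 over the alternatives and missed the threshold, with adjusted p up to 0.096, without MCF10A siNT replicate 8 or 9, MCF10A miR-28-5p replicate 7, RPE-1 siNT replicate 2 or 3, or RPE-1 miR-28-5p replicate 3. Of 41 DNA replication and S phase genes, 12 fell in MCF10A and 11 rose in RPE-1, where 12.5% and 24.0% of all genes did. Without MCF10A siNT replicate 8, 5 fell in MCF10A (7 under scaling by the total), and without RPE-1 siNT replicate 3, 6 rose in RPE-1. The response was higher in RPE-1 for 15 (9 without either of these libraries), beside 12.1% of all genes. PCNA, the sliding clamp, read 2053, 1533 and 1705 with siNT and 4434, 4485 and 4029 with miR-28-5p in RPE-1 and 3520, 4673 and 4314 with siNT and 4468, 4817 and 5056 with miR-28-5p in MCF10A. CDT1, which licenses origins, and PRIM1, a primase subunit, differed by 1.59 ± 0.31 and 1.45 ± 0.30. Of 39 mitosis genes, 1 had a higher response (3 without RPE-1 miR-28-5p replicate 1), with a median difference of 0.09.

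**Figure D5:**
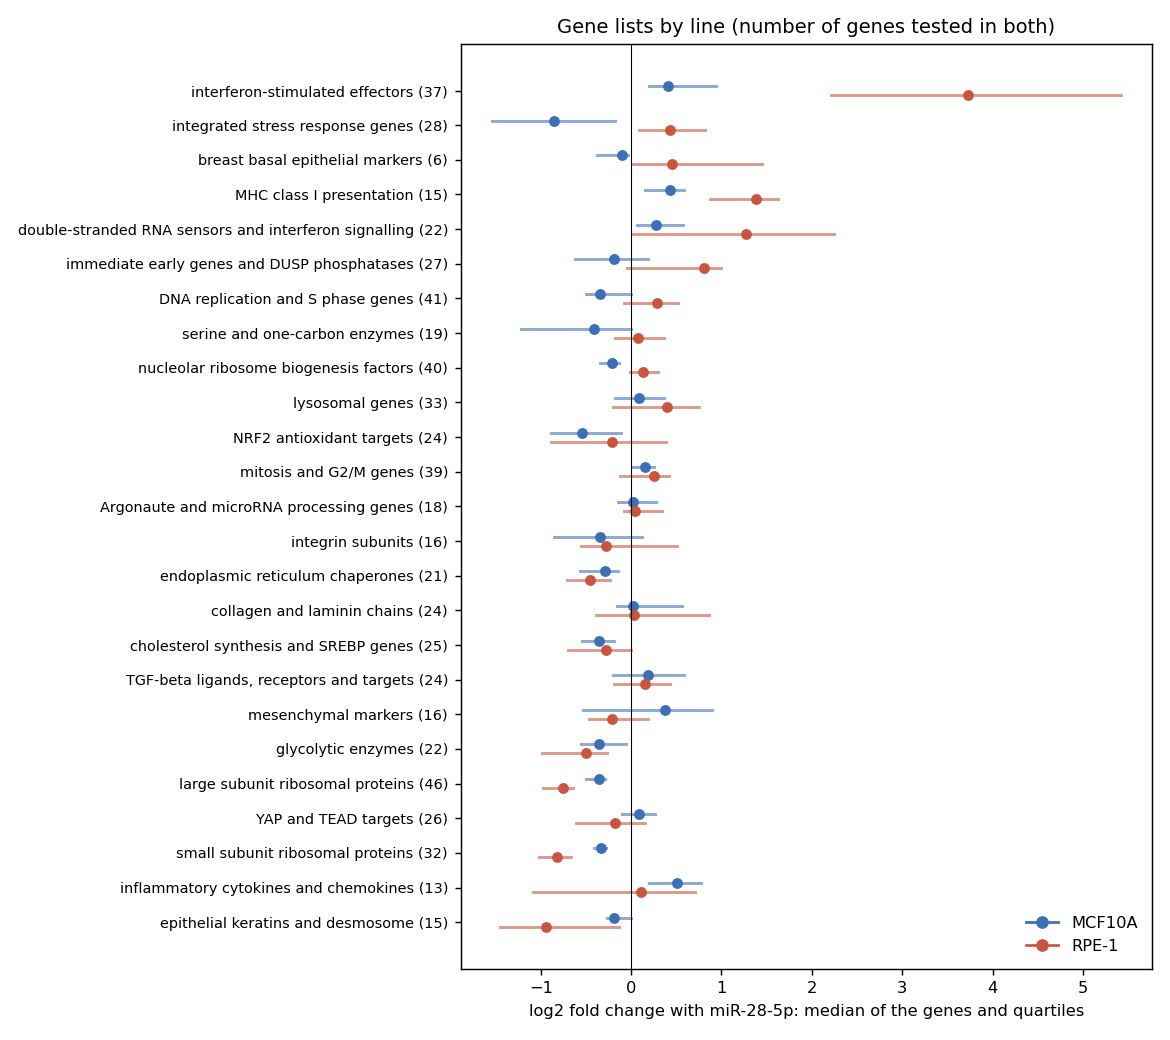
For the gene lists compared, each with at least 5 genes tested in both lines, points are the median log2 fold change with miR-28-5p and lines its quartiles, in MCF10A (blue) and RPE-1 (red), ordered by the median difference. Interferon-stimulated effectors stand at 0.40 and 3.72, and integrated stress response genes at -0.85 and 0.43.

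For the remaining lists, the counts stand beside 12.1% of all genes with a higher and 11.3% with a lower response in RPE-1. Of 24 NRF2 targets, which defend against oxidants, 7 had a higher and 5 a lower response in RPE-1, with GCLC, which makes glutathione, falling by 0.83 in MCF10A and rising by 0.41 in RPE-1. AKR1B10, an aldo-keto reductase, fell by 1.35 in MCF10A and rose by 1.30 in RPE-1. Of 22 glycolytic genes, 6 had a lower and 1 a higher response in RPE-1, or 3 and 2 without RPE-1 miR-28-5p replicate 1. The glucose transporters went apart: SLC2A3 fell by 1.85 in MCF10A and rose by 0.83 in RPE-1, and SLC2A1 fell in both lines and by 0.92 more in RPE-1. Lysosomal genes had a higher response in RPE-1 in 10 of 33 cases (6 without MCF10A siNT replicate 8 or miR-28-5p replicate 7), and CTSC, the protease that activates granzymes, fell by 0.81 in MCF10A and rose by 0.45 in RPE-1. Of 25 sterol synthesis genes, 2 had a higher and 3 a lower response (4 and 5 with the replicate block). SCD, which desaturates stearate, fell by 2.55 in RPE-1 and 1.29 in MCF10A (difference -1.26 ± 0.30). Shares near those of all genes were found for 21 endoplasmic reticulum chaperones, with 2 higher and 4 lower, for 24 collagen and laminin chains, with 3 (5 without RPE-1 miR-28-5p replicate 1) and 4, and for 18 Argonaute and microRNA processing genes, with 2 and 2. Of 24 TGF-beta genes, 6 had a higher and 5 a lower response (3 without RPE-1 miR-28-5p replicate 1), with TGFBR3 and ID2 higher by 1.81 and 1.64. AGO1, which binds microRNAs, fell by 1.46 in RPE-1 and 0.71 in MCF10A (difference -0.75 ± 0.18, adjusted p = 0.0072). Of the 6 breast basal markers tested in both lines, 2 had a higher response in RPE-1, where their summed level was 1520–1970 with miR-28-5p and 1150–1430 with siNT.

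The genes whose response differed also differed between the lines in level with siNT. Of the 113 opposite genes that rose in RPE-1, 102 (90.3%) had a higher mean with siNT in MCF10A than in RPE-1, and of the 99 that fell in RPE-1, 89 (89.9%) had the higher mean in RPE-1. Over all genes tested, 47.6% were higher in MCF10A and 52.4% in RPE-1. Among the 1614 genes with a higher response in RPE-1, 82.7% were higher in MCF10A with siNT, and among the 1513 with a lower response 83.0% were higher in RPE-1. DUSP6, ASNS, PSAT1 and NECTIN1 belong to the first kind and MYLK, COL1A1, TUBA1A and ACTA2 to the second. The levels come from tables scaled separately, and the siNT libraries enter both the level and the fold change, so these shares are a description.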

How the data were processed

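Polyadenylated RNA from MCF10A and RPE-1 cells was sequenced, aligned by the authors with HISAT2 2.1.0 to hg38 and quantified in Partek. The deposited signal is a table per line of gene counts estimated by expectation-maximization and divided by DESeq2 size factors, so it is not whole and the lines are scaled separately. Values were analysed as log2(value + 1) in limma 3.58.1 (R 4.3.3) with a mean-variance trend, with the 9 libraries and 3 groups of each line in 1 fit. A gene entered a line's fit when 3 or more of its libraries reached a value of 10. The log2 fold change therefore understates the change of low genes. The difference between lines was the RPE-1 minus the MCF10A log2 fold change, with the standard errors and degrees of freedom combined from both fits by Satterthwaite's formula, and Benjamini-Hochberg adjustment ran over all genes tested in both lines (threshold 0.05, two-sided). Counts of called genes use this fit throughout, and errors are SE with n = 3 per group. The fits were tested on simulated data. Samples were grouped by their labels, and depth per library was estimated from the steps between low values. P-values for a change in 1 line rest on the spread between the replicates of that line. Those for a difference rest on the replicate spread in both lines.

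Genes were named by rule. Among called genes with a mean of at least 100 in each line, the 10 highest and 10 lowest differences were named. From the same genes came the 8 opposite genes in each sense with the largest smaller change, and 5 per sense called in 1 line alone. The 5 that rose and the 5 that fell most in both lines needed that mean but no called difference. RPS28, MYC, CDKN1A, MDM2 and others the study follows were named without either condition. Examples from 26 of the 30 gene lists needed a mean of at least 100 in either line and no called difference. Others are said to be chosen after their values were seen. Some genes and a gene list are not reported here. The members and lists were chosen with earlier results of these data known. Replicate numbers were taken to pair libraries where same-numbered libraries deviated together: the correlations of their deviations were 0.263, 0.176 and 0.111 in MCF10A and 0.0214, 0.0430 and 0.0230 in RPE-1, so they pair the MCF10A libraries alone. The main fit left this pairing out, and the fits with the replicate block called more genes in MCF10A. Alternatives covered the pseudocount, filters, scaling, fits, moderation, the replicate block and leaving out each library. Promoters came from RefSeq (GRCh38.p14) and 3′ UTRs from GENCODE 44 on GRCh38. The miR-708-5p libraries entered the fits and are not compared between lines here.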

Additional observations from a re-analysis of the deposited data

Results flagged for a closer look

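The test of the difference between the lines found a different response to miR-28-5p for 3127 genes, of which 212 changed in opposite directions. Among the named genes that rose in RPE-1 and fell in MCF10A, the difference on the log2 scale was 3.34 for DUSP6, 2.93 for ASNS, 2.46 for NECTIN1, 2.43 for SLC6A9, 2.35 for PHLDA1, 2.20 for PSAT1, 2.18 for TRIB2 and 1.53 for SLC20A1. Among those that fell in RPE-1 and rose in MCF10A, it was -3.91 for VSTM2L, -3.39 for COL1A1, -2.93 for MYLK, -2.54 for GASK1B, -2.45 for ACTA2, -2.40 for TUBA1A, -2.23 for LIF and -2.13 for SYNPO. Each group held 3 libraries, too few to test a single library as an outlier.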

How the results depend on the processing

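Of the 150 named genes, 129 were called different, and 109 of these kept the call and direction in all 22 alternatives. The other 20 lost the call in at least 1, and none of the 129 reversed. The difference of TP53INP1, which was not called (0.22), ranged from -0.000257 without RPE-1 miR-28-5p replicate 1 to 0.473 without replicate 2. Requiring an absolute log2 change of at least 1 left 1136 genes that differed, 26 opposite genes, 662 changed in MCF10A and 1647 in RPE-1. The replicate block in both lines gave 3757 genes that differed, 346 opposite, 4014 in MCF10A and 6514 in RPE-1, and the block in MCF10A alone, chosen after seeing the data, gave 3602 and 328. Leaving out 1 library at a time gave 2287 to 3362 genes that differed, 113 to 215 opposite, 1802 to 2801 in MCF10A and 5129 to 6185 in RPE-1. The MCF10A count was 1974 and 1923 without siNT replicates 8 and 9, and 1802 and 2063 without miR-28-5p replicates 8 and 9. The cause was not tested, beyond there being fewer samples. The share of differing genes with a higher response in RPE-1 was 51.6%, and 44.9% under upper quartile scaling or 47.8% under scaling by the total. Scaling by the total put the all-gene median at 0.109 in MCF10A and 0.095 in RPE-1, in place of -0.002 and 0.009. The lists were recounted without the 4 libraries that stand apart, with the scalings, the pseudocount and the blocks, some chosen after seeing the data. Of 416 such list counts 363 stayed within 1.5 times and 53 moved. Genes near 3 reads per library have folds that depend on the pseudocount.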

Other observations

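MHC class II genes present peptides taken up from outside the cell and are chosen here after their values were seen. Their response was lower in RPE-1, where that of most interferon-stimulated genes was higher. CD74, the invariant chain, read 14.4, 48.5 and 14.7 with siNT and 200, 645 and 369 with miR-28-5p in MCF10A and 4.45, 2.07 and 4.47 with siNT and 4.59, 12.4 and 14 with miR-28-5p in RPE-1. It rose by 3.99 in MCF10A and had a log2 fold change of 1.21 ± 0.51 in RPE-1 (difference -2.78 ± 0.78, adjusted p = 0.013). In RPE-1 its siNT values lay near 3 reads, and all miR-28-5p libraries were above them, the lowest by little (4.59 against 4.47). HLA-DMA, which loads peptides, and CIITA, the master regulator of the class, rose in MCF10A by 1.76 and 2.36 and changed by -0.99 and 0.42 in RPE-1. The siNT and miR-28-5p libraries of HLA-DMA overlapped in both lines. Only 3 of the 10 listed genes were tested in both lines, and all 3 had the lower response in RPE-1, beside 11.3% of all genes. In RPE-1, 0 of the 3 rose in the main fit and 2 did without miR-28-5p replicate 1.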
